A study of Homo sapiens with 6 samples.

Results

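Laminin and integrin genes were followed by RNA sequencing of the human neuroblastoma line SK-N-BE(2), with 6 libraries in all. The members were picked by gene name, as the rows of the deposited count table named for a laminin alpha, beta or gamma chain (LAMA, LAMB or LAMC and a digit) or for an integrin alpha or beta chain (ITGA or ITGB and the chain's number or letter). They came to 38 of 19937 gene rows, with 5 laminin alpha, 4 laminin beta, 3 laminin gamma, 18 integrin alpha and 8 integrin beta genes. The series describes a knockout of GPR91, the succinate receptor encoded by SUCNR1, and compares 3 libraries titled sgcon with 3 titled sgGPR91. Both groups carried the same treatment labels for 48 hours, with DOX at 1.5 µg/ml in one label and doxorubicin at 100 nmol/L in another. The labels do not match in dose. They leave unsettled which dose was used and whether DOX stands for doxorubicin. None of the 6 libraries was labelled as untreated. The sources used here do not say whether the sgGPR91 cells were a pool or 1 clone. The genotype tags state the reverse of the titles, so the groups carry their titles here, and with the tags in place of the titles higher would read lower throughout. SUCNR1 had 1, 0 and 2 reads in the sgcon libraries and 1, 0 and 0 in the sgGPR91 libraries, too few to settle this. Separate cultures are not stated for the replicates, so each p-value reflects the spread among these 6 libraries alone, and that spread may be technical.

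Laminins are secreted trimers of an alpha, a beta and a gamma chain that build the basement membrane, the thin sheet of matrix on which epithelia, nerves and vessels rest. Integrins are pairs of an alpha and a beta chain that span the cell membrane, bind laminin, collagen, fibronectin and other matrix proteins outside, and join the actin skeleton inside. The alpha chain largely decides which ligand is bound, and ITGB1 is the partner of most alpha chains. In neuroblastoma, integrins have been studied for their part in attachment, migration and differentiation.

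Total counts ran from 7070189 to 10252425 per library, and the 38 genes held between 0.212% and 0.235% of them in the sgcon libraries and between 0.26% and 0.269% in the sgGPR91 libraries. As a check of the cell type, all 10 sympathetic neuroblast markers listed were detected, none at 0. Their summed FPKM (deposited reads scaled by gene length and library total) lay between 2113 and 2286 in sgcon and between 1468 and 1563 in sgGPR91, and 9 of the 10 were called lower. The summed FPKM of 9 markers of the mesenchymal neuroblastoma state was 202.4 to 241.2 in sgcon and 216.3 to 222.7 in sgGPR91, with 4 higher and 1 lower. For 8 fibroblast markers the sums were 211.5 to 224.8 and 216.7 to 220.6, none was at 0, and 2 were higher and 2 lower. Most of these sums came from genes other than the collagen markers. COL1A1, COL3A1 and COL1A2 averaged 10.5, 4.51 and 0.0334 FPKM in sgcon and 7.92, 3.91 and 0.0606 FPKM in sgGPR91. Markers of the remaining cell types had lower sums. The 6 endothelial markers summed to at most 0.38 FPKM and none was tested. The 7 leukocyte markers (CD3E and LYZ at 0) summed to 0.563 to 1.02 FPKM in sgcon and 1.18 to 1.89 in sgGPR91, and CD14, the 1 tested, was called higher. The 6 Schwann lineage markers (FOXD3 at 0) summed to 1.32 to 1.91 and 2.52 to 3.69 FPKM, with 1 of 2 tested called higher. The 6 epithelial markers (KRT5 at 0) summed to 5.12 to 7.38 and 3.19 to 4.25 FPKM, and EPCAM, the 1 tested, was called lower. The neuroblast, Schwann lineage, leukocyte and epithelial sums did not overlap between the groups, and their part in the results below was not tested. In bulk RNA, fewer cells of a type and less RNA per cell cannot be told apart.

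Of the 38 members, 27 had enough reads to be tested, and 16 of these were called by edgeR at an adjusted p under 0.05, with 10 higher and 6 lower in sgGPR91. Over all 12701 genes tested, 41.1% were called, 20.2% higher and 21.0% lower, so the members' share of 59.3% stands against a high background. Among the 27 tested members, 2 (ITGB3 and ITGB4) reached the count filter in all libraries of one group only. A difference of at least 1.5-fold was called for 12 members, 8 higher and 4 lower, a size called for 16.1% of all genes tested. The FPKM values of the groups did not overlap for 22 of the 27, as for 50.6% of all genes tested. The median log2 fold change of the tested members was 0.18, and that of all genes tested was -0.01.

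**Figure D1:**
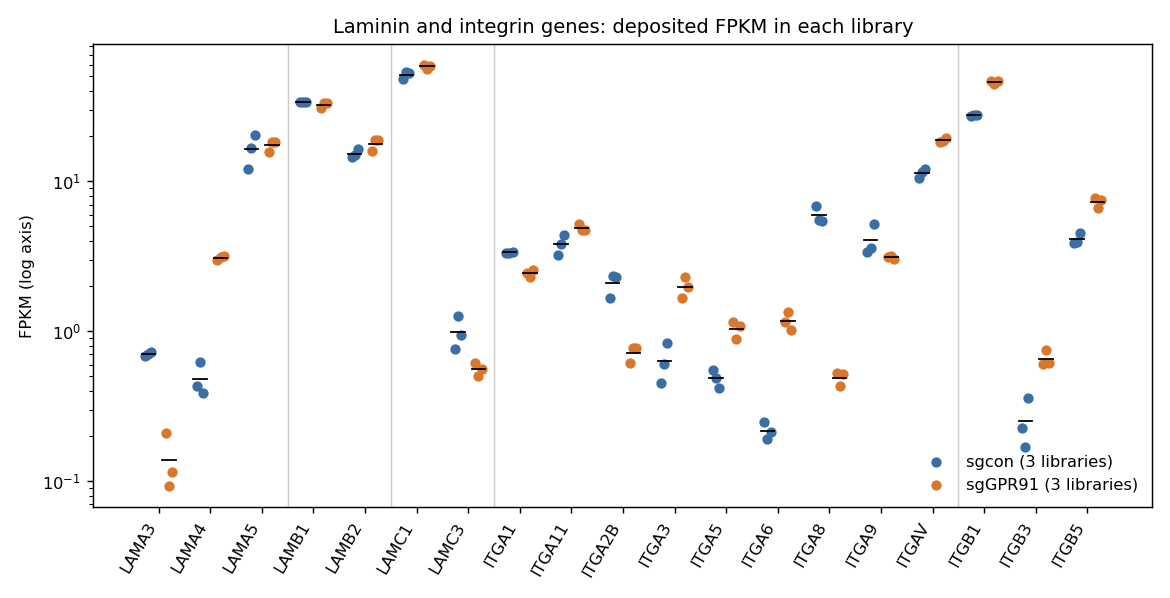
Deposited FPKM (log axis) of the 16 called laminin and integrin genes and of LAMA5, LAMB1 and LAMC1 in each library, with black lines at the mean of 3 libraries; vertical lines separate chain classes. LAMC1, LAMB1 and ITGB1 are the highest, ITGA8 falls from a mean of 5.93 to 0.492 and LAMA4 rises from 0.482 to 3.09.

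Upstream sequences are shown for called members with at least 1.5-fold differences. Only RefSeq windows outside annotated exons were used (at most 30 exonic bases in GENCODE version 29). The windows of ITGA8, LAMA4, LAMA3 and ITGA5 held more exonic bases and are left out. RefSeq promoter windows were found for 26 of the 38 genes. Each line gives the 250 bases before the most upstream listed start, 5′ to 3′ on the gene's strand. Capitals mark matches on either strand to 4 motifs: the E-box CACGTG bound by MYC-family factors, the AP-1 site TGACTCA, the GC box GGGCGG and the TATA box TATAAA, with no overlap between matches in the windows printed. The windows (GRCh38.p14) are chr2:186589806-186590055, plus strand, for ITGAV; chr10:32958231-32958480, minus strand, for ITGB1; chr3:124901419-124901668, minus strand, for ITGB5; chr2:172427086-172427335, plus strand, for ITGA6; and chr17:44389650-44389899, minus strand, for ITGA2B.
ITGAV: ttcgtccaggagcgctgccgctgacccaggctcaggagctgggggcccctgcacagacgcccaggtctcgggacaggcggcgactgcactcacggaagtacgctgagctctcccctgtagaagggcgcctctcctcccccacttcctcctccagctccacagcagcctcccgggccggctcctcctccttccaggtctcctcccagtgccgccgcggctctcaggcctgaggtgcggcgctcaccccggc
ITGB1: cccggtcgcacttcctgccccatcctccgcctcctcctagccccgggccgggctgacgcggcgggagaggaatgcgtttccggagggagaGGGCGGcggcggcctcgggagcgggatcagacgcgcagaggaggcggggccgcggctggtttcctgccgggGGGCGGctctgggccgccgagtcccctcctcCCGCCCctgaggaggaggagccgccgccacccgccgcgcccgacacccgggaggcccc
ITGB5: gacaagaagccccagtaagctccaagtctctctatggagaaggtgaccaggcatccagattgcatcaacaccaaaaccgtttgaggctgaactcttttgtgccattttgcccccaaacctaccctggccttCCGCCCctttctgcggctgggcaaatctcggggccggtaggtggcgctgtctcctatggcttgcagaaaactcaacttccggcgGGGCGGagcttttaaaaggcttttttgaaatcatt
ITGA6: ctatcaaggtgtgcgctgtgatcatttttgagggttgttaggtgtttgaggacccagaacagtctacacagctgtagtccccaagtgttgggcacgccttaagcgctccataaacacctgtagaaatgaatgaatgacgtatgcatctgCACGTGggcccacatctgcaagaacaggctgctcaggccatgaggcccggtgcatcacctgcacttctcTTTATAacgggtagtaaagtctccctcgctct
ITGA2B: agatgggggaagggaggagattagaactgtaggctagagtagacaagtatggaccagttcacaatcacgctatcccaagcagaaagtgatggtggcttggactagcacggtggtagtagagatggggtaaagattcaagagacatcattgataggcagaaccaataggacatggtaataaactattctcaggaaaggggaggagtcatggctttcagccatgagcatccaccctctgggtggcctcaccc

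These windows were unlike each other in composition. The ITGB1 window held 32 CpG dinucleotides at 78.4% GC and the ITGAV window 18 at 70.8%, while the windows of ITGB5, ITGA6 and ITGA2B held 9, 8 and 2. The median over all 35116 windows was 11 CpG and 58% GC. GC boxes were matched 3 times in ITGB1 and 2 times in ITGB5, and the ITGA6 window held 1 E-box and 1 TATA box. No motif was matched for ITGAV or ITGA2B. Over all windows the share with a match was 6.34% for the E-box, 4.2% for AP-1, 42.6% for the GC box and 10.7% for the TATA box. Over the 33 windows of member genes it was 3.03%, 6.06%, 51.5% and 6.06%. A match is a description of letters and not a bound site.

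Among the laminins, the chains that carried most of the signal changed little and low alpha chains changed most. LAMC1, the common gamma chain (ENSG00000135862, chromosome 1, 183023420 to 183145592), had 48.1, 53.3 and 52.7 FPKM in sgcon and 59.6, 56.5 and 58.9 FPKM in sgGPR91. The groups did not overlap, but the log2 fold change of 0.18 ± 0.07 (SE) gave an edgeR adjusted p of 0.055. It passed with DESeq2 (adjusted p = 0.0361), with the replicate number as a block (edgeR adjusted p = 0.0485) and without sgcon replicate 3 (edgeR adjusted p = 0.0278). LAMB1, the beta chain of the earliest basement membranes (ENSG00000091136, chromosome 7, 107923799 to 108003213), had 34.0, 33.7 and 33.9 FPKM in sgcon and 30.7, 33.1 and 33.1 FPKM in sgGPR91, with an edgeR adjusted p of 0.394.

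LAMA5, the alpha chain widespread in mature basement membranes (ENSG00000130702, chromosome 20, 62307955 to 62367312), was the leading alpha chain. It had 12.1, 16.7 and 20.5 FPKM in sgcon and 15.8, 18.2 and 18.2 FPKM in sgGPR91. The sgcon libraries enclosed the sgGPR91 libraries, and the log2 fold change of 0.08 ± 0.12 (SE) was not called. Without sgcon replicate 3, the highest library, it was 0.24 with an edgeR adjusted p of 0.0435. LAMB2, a beta chain of synaptic and kidney basement membranes, went from 15.3 ± 1.02 to 17.8 ± 1.72 FPKM (SD, n = 3), with an edgeR adjusted p of 0.0413 and overlapping libraries. Its call ended under 8 of 13 alternative settings, among them DESeq2 (adjusted p = 0.0621).

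LAMA4, the alpha chain typical of vessels, muscle and peripheral nerve (ENSG00000112769, chromosome 6, 112107931 to 112254939, minus strand), was the laminin that rose most. It had 0.431, 0.627 and 0.39 FPKM in sgcon and 2.98, 3.15 and 3.16 FPKM in sgGPR91, on 157 and 945 reads. Every sgGPR91 library was far above every sgcon library. The rise was 6.22-fold (log2 fold change 2.64 ± 0.15 SE, edgeR adjusted p = 2.376e-09). The 43 tested genes within 5 Mb on either side had a median of -0.02, with 10 higher and 11 lower.

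LAMA3, the alpha chain of epithelial laminin in skin (ENSG00000053747, chromosome 18, 23689453 to 23956222, plus strand), moved the other way. It had 0.683, 0.707 and 0.722 FPKM in sgcon and 0.21, 0.0926 and 0.115 FPKM in sgGPR91, on 269 and 52 reads. The groups were apart, and the fall was 5.01-fold (log2 fold change -2.33 ± 0.26 SE, edgeR adjusted p = 3.677e-06). The 21 tested genes within 5 Mb of LAMA3 had a median of -0.12, with 2 higher and 5 lower. LAMC3, a gamma chain found in the central nervous system, had 0.763, 1.25 and 0.949 FPKM in sgcon and 0.618, 0.505 and 0.557 FPKM in sgGPR91. Its fall was 1.78-fold (edgeR adjusted p = 0.00693). The call ended without sgcon replicate 2, the highest library (edgeR adjusted p = 0.0652), and with limma on unfiltered log2(FPKM + 1) (limma adjusted p = 0.0966).

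LAMA1, the alpha chain of the early embryo, was below the test's count filter. It had 7, 2 and 6 reads in sgcon and 0, 0 and 0 in sgGPR91. Against a floor of 3 reads over the sgGPR91 group that was 4.83-fold lower, with the error of the sgcon reads left out. LAMA2, the chain of muscle and Schwann cell laminin, had 26 and 36 reads and was not called. LAMB3, a beta chain that joins LAMA3 in epithelial laminin, was at 0.657 ± 0.144 and 0.891 ± 0.111 FPKM (SD, n = 3) with an edgeR adjusted p of 0.241. LAMB4 had 10 and 15 reads and was not tested.

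The make-up of the laminin alpha chains differed between the groups, while the libraries overlapped in their sum. The summed FPKM of the 5 alpha chains went from 17.7 ± 4.16 to 20.8 ± 1.40 (SD, n = 3; two-sided exact permutation p = 0.4). LAMA4 held 3.21%, 3.46% and 1.79% of that sum in the sgcon libraries and 15.6%, 14.6% and 14.6% in the sgGPR91 libraries. The share of LAMA3 was 4.11% ± 0.899 and 0.686% ± 0.359, and that of LAMA5 was 92.3% ± 1.94 and 83.7% ± 1.13 (SD, n = 3). For each of these 3 shares the groups did not overlap, with an exact permutation p of 0.1, the smallest that 3 libraries against 3 allow. LAMC1 held 98.0% and 99.0% of gamma chain FPKM.

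**Figure D2:**
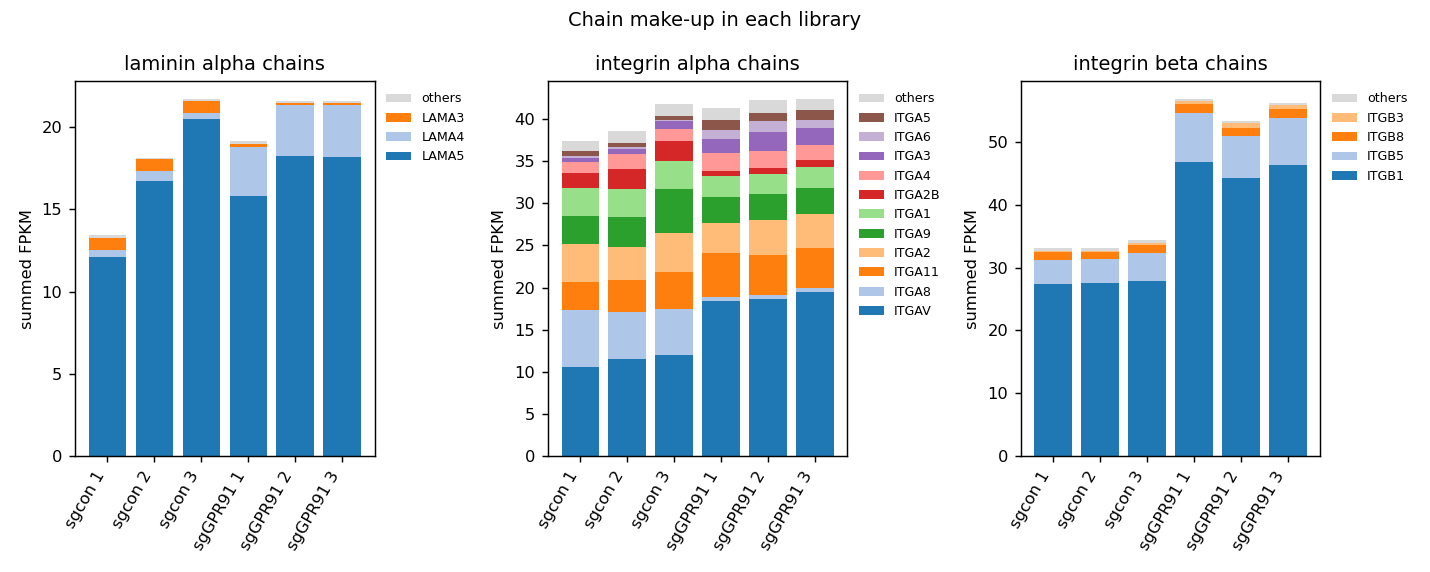
Summed FPKM of laminin alpha, integrin alpha and integrin beta chains in each library, stacked by gene. LAMA4 widens from 2.82% to 14.9% of laminin alpha FPKM on average, ITGA8 shrinks from 15.2% to 1.17% of integrin alpha FPKM, and the integrin beta sum is higher in all 3 sgGPR91 libraries.

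Levels between genes rest on the listed gene lengths. For 31 of the 38 members that length was within 10% of the exonic length in GENCODE version 29, but it was 2.42 times as long for ITGB1 and 2.28 times as long for LAMB1, so the FPKM of both may be understated against other genes. The deposited ITGB1 model also reaches upstream of the window printed above. On the shorter lengths the LAMA4 share was 2.92% and 15.4% and the ITGA8 share 14.6% and 1.12%.

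Among the integrin beta chains, ITGB1, ITGB5 and ITGB3 rose, and ITGB3 reached the count filter in all libraries of sgGPR91 only. ITGB1, the shared beta chain (ENSG00000150093, chromosome 10, 32887273 to 33005792, minus strand), had 27.3, 27.5 and 27.8 FPKM in sgcon and 46.9, 44.2 and 46.3 FPKM in sgGPR91. The groups were well apart, with a log2 fold change of 0.72 ± 0.07 (SE), or 1.65-fold (edgeR adjusted p = 5.199e-07). Of the 18 tested genes within 5 Mb of it, 1 was higher and 4 were lower.

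ITGB5, a partner of ITGAV in vitronectin binding (ENSG00000082781, chromosome 3, 124761948 to 124901418), had 3.86, 3.92 and 4.52 FPKM in sgcon and 7.70, 6.68 and 7.52 FPKM in sgGPR91, a 1.78-fold rise (edgeR adjusted p = 6.279e-06). ITGB3, another partner of ITGAV and the only known partner of ITGA2B, had 0.225, 0.169 and 0.357 FPKM in sgcon and 0.604, 0.75 and 0.617 FPKM in sgGPR91. That was 2.68-fold higher (edgeR adjusted p = 0.00228) on 40 and 106 reads. The 131 tested genes within 5 Mb had a median log2 fold change of -0.21, with 21 higher and 54 lower. GENCODE version 29 has a protein-coding model on the same strand, AC068234.1, over 51.6% of ITGB3 exonic bases, so the split of its reads is uncertain.

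The remaining beta chains were low or did not pass. ITGB8, which binds latent TGF-beta with ITGAV, was at 1.21 ± 0.0744 and 1.37 ± 0.0425 FPKM (SD, n = 3; edgeR adjusted p = 0.251). ITGB4, the hemidesmosome chain that pairs with ITGA6, had 17, 15 and 19 reads in sgcon and 9, 11 and 5 in sgGPR91, with a log2 fold change of -0.99 ± 0.42 (SE) and an edgeR adjusted p of 0.0699. The 98 tested genes within 5 Mb of ITGB4 had a median of -0.33, with 52 lower and 4 higher. ITGB6, an epithelial chain, had 0 reads in each sgcon library and 1, 4 and 8 in sgGPR91, at least 4.49-fold higher against a floor of 3 reads over the group. ITGB2 and ITGB7, the leukocyte beta chains, had 17 and 5 reads in all of sgcon and 10 and 4 in all of sgGPR91. ITGB7 shares 42.1% of its exonic bases with ZNF740 on the other strand.

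The summed FPKM of the beta chains went from 33.5 ± 0.792 to 55.5 ± 1.90 (SD, n = 3) without overlap (exact permutation p = 0.1). ITGB1 held 82.2% and 82.6% of it, a difference smaller than the spread of the sgcon libraries, and 91.6% and 91.7% on GENCODE lengths, where the beta sum was 72.9 and 121.0 FPKM. The summed FPKM of the alpha chains was 39.2 ± 2.25 and 42.0 ± 0.603 (SD, n = 3; exact permutation p = 0.2), with overlapping libraries. Alpha and beta sums are not to be set against each other, since on GENCODE lengths the alpha sum was 39.6 and 42.7 FPKM.

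**Figure D3:**
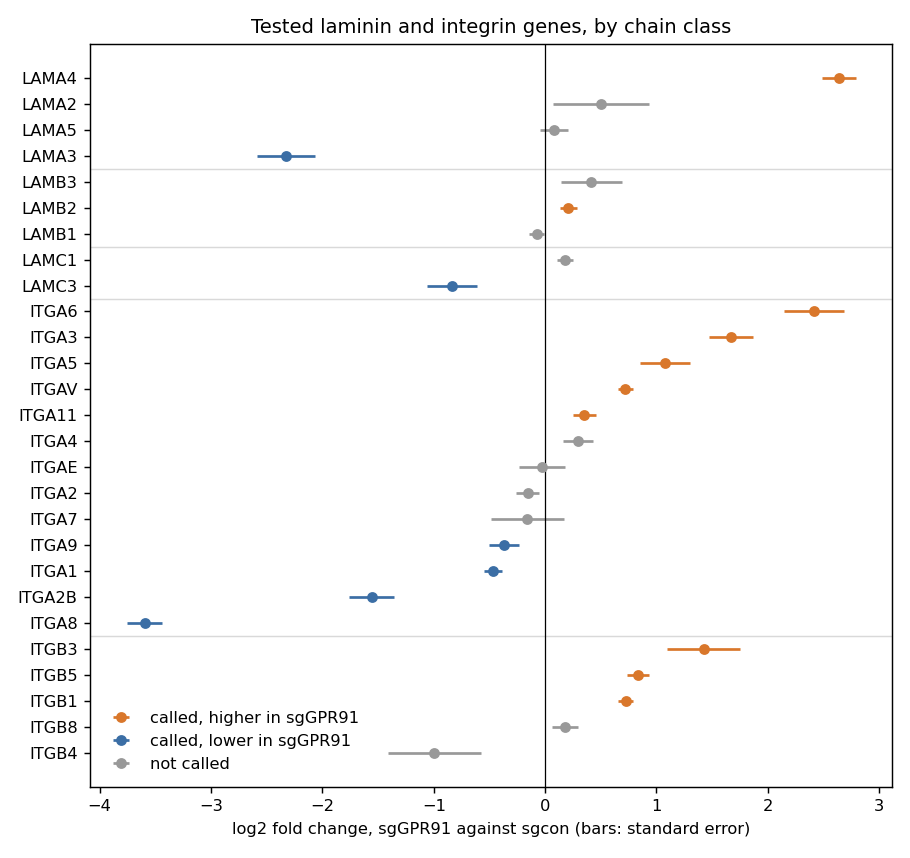
Log2 fold change, sgGPR91 against sgcon, with its standard error, of the 27 tested laminin and integrin genes, ordered within chain class. Calls run from -3.60 for ITGA8 to 2.64 for LAMA4, and the 3 called beta chains all lie above 0.

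Alpha chains that recognise the Arg-Gly-Asp motif of fibronectin, vitronectin and related ligands moved in opposite directions. ITGAV (ENSG00000138448, chromosome 2, 186590056 to 186680901, plus strand), the most abundant alpha chain, had 10.5, 11.6 and 12.0 FPKM in sgcon and 18.4, 18.7 and 19.5 FPKM in sgGPR91. It rose 1.65-fold, with a log2 fold change of 0.72 ± 0.07 (SE) like that of ITGB1 (edgeR adjusted p = 6.469e-07). ITGA5, the classical fibronectin receptor chain, had 0.551, 0.489 and 0.421 FPKM in sgcon and 1.14, 0.892 and 1.09 FPKM in sgGPR91, or 2.11-fold more (edgeR adjusted p = 0.00118). No sgGPR91 library of either gene overlapped an sgcon library.

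ITGA8, the nephronectin receptor chain known from kidney and neural development (ENSG00000077943, chromosome 10, 15513954 to 15719922, minus strand), showed the largest difference among the 27 tested members. It had 6.86, 5.50 and 5.43 FPKM in sgcon and 0.523, 0.433 and 0.519 FPKM in sgGPR91, on 1151 and 92 reads. The fall was 12.1-fold (log2 fold change -3.60 ± 0.16 SE, edgeR adjusted p = 1.218e-10). The 38 tested genes within 5 Mb had a median of 0.06. NPNT, the gene of nephronectin, rose from 0.128 ± 0.0141 to 0.623 ± 0.215 FPKM (SD, n = 3; edgeR adjusted p = 0.000249) and was picked out with its value already known. NPNT had 21 and 98 reads and reached the count filter in all libraries of sgGPR91 only.

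ITGA2B, best known as the platelet fibrinogen receptor chain (chromosome 17, 44372180 to 44389649, minus strand), had 1.68, 2.33 and 2.31 FPKM in sgcon and 0.613, 0.771 and 0.771 FPKM in sgGPR91. It fell 2.95-fold (edgeR adjusted p = 1.666e-05). The 144 tested genes within 5 Mb had a median of -0.08, with 24 higher and 48 lower. ITGAV, ITGA5, ITGA8 and ITGA2B together came to 19.9 ± 0.286 and 21.1 ± 0.634 FPKM (SD, n = 3; exact permutation p = 0.1), close in size though the libraries did not overlap. ITGAV held 29.04% ± 0.915 of all alpha chain FPKM in sgcon and 44.9% ± 0.881 in sgGPR91, while ITGA8 went from 15.2% ± 2.81 to 1.17% ± 0.129 (SD, n = 3). Neither share overlapped between groups (exact permutation p = 0.1 for each).

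The laminin-binding alpha chains were low, and those that passed the test rose. ITGA6 (ENSG00000091409, chromosome 2, 172427354 to 172506459, plus strand), which pairs with ITGB1 or ITGB4, had 0.247, 0.19 and 0.212 FPKM in sgcon and 1.15, 1.35 and 1.01 FPKM in sgGPR91. That was 5.34-fold higher, on 38 and 199 reads (log2 fold change 2.42 ± 0.27 SE, edgeR adjusted p = 3.205e-06). ITGA3 (chromosome 17, 50055968 to 50090481, plus strand), a receptor chain for LAMA5-containing laminins, had 0.449, 0.607 and 0.837 FPKM in sgcon and 1.67, 2.31 and 1.98 FPKM in sgGPR91.

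ITGA3 rose 3.18-fold (edgeR adjusted p = 5.181e-06) in a stretch of chromosome 17 where genes were mostly lower, with 36 of 70 tested neighbours within 5 Mb called lower, 6 higher and a median of -0.31. ITGA7, the laminin receptor chain of muscle, was at 0.313 ± 0.0218 and 0.283 ± 0.00395 FPKM (SD, n = 3; edgeR adjusted p = 0.727). Together these 3 chains summed to 0.989, 1.13 and 1.36 FPKM in sgcon and 3.10, 3.95 and 3.28 FPKM in sgGPR91, from 2.95% to 8.19% of alpha chain FPKM. The sums did not overlap (exact permutation p = 0.1).

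Collagen-binding alpha chains differed in both directions. ITGA1, a receptor chain for basement membrane collagen, fell 1.38-fold from 3.36 ± 0.0419 to 2.44 ± 0.119 FPKM (SD, n = 3; edgeR adjusted p = 0.00022). PELO, which lies within ITGA1 on the same strand, overlaps 2.56% of its exonic bases. ITGA11, a receptor chain for fibrillar collagen, rose 1.28-fold from 3.82 ± 0.569 to 4.88 ± 0.256 FPKM (SD, n = 3; edgeR adjusted p = 0.00993). With sgGPR91 replicate 1 left out this call was lost (edgeR adjusted p = 0.0563), as it was in 2 of the 3 limma runs. ITGA2 was at 4.34 ± 0.408 and 3.91 ± 0.298 FPKM (SD, n = 3) and was not called (edgeR adjusted p = 0.249). ITGA10, a cartilage chain, had 15 and 34 reads and was not tested, with a ratio of reads per library total of 2.35 (exact 95% binomial interval 1.24 to 4.64, counting error only). The 4 chains summed to 11.6 ± 0.766 and 11.4 ± 0.050 FPKM (SD, n = 3; exact permutation p = 1), and the libraries overlapped.

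ITGA9, which binds tenascin and osteopontin, had 3.36, 3.59 and 5.20 FPKM in sgcon and 3.15, 3.17 and 3.04 FPKM in sgGPR91. Its fall (log2 fold change -0.37 ± 0.13 SE, edgeR adjusted p = 0.0374) rested on sgcon replicate 3, without which it was -0.18 with an adjusted p of 0.191. The call ended under 7 of 13 alternatives. ITGA4, a receptor chain for fibronectin and VCAM1 in leukocytes and neural crest, was at 1.56 ± 0.212 and 1.93 ± 0.114 FPKM (SD, n = 3; edgeR adjusted p = 0.0928), and passed without sgcon replicate 2 (edgeR adjusted p = 0.0366).

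Leukocyte alpha chains had few or no reads apart from ITGAE. ITGAD and ITGAX had 0 reads in all 6 libraries. ITGAM had 1 read and ITGAL 2 reads in sgcon and 7 in sgGPR91. ITGAE alone had enough reads to be tested, at 0.933 ± 0.121 and 0.923 ± 0.113 FPKM (SD, n = 3; edgeR adjusted p = 0.928), and HASPIN, encoded inside it on the other strand, covers 6.41% of its exonic bases.

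Genes that work with laminins and integrins were followed in 7 lists, whose counts stand against 20.2% of all genes tested called higher and 21.0% lower. For the non-integrin laminin receptors and the enzymes that build matriglycan, the sugar of dystroglycan that binds laminin, 10 of 18 tested genes rose and 2 fell, with a median log2 fold change of 0.28. Its 12 calls came to 7 with limma on unfiltered log2(FPKM + 1). DAG1, the dystroglycan gene itself, rose from 5.69 ± 0.253 to 11.1 ± 0.314 FPKM (1.94-fold, edgeR adjusted p = 1.33e-07), and the syndecan gene SDC3 from 9.45 ± 1.85 to 17.0 ± 0.129 FPKM (1.80-fold, edgeR adjusted p = 4.89e-06; SD, n = 3). LARGE2, a matriglycan polymerase, fell from 1.06 ± 0.20 to 0.235 ± 0.0856 FPKM (SD, n = 3; 4.42-fold). It had 87 and 19 reads and reached the count filter in all libraries of sgcon only.

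Partners of laminin in the basement membrane changed in both directions, with 3 of 12 tested genes higher and 6 lower and a median of -0.51. COL4A2 and COL4A1, chains of the collagen network of the basement membrane, fell from 6.40 ± 0.713 to 1.37 ± 0.118 FPKM and from 3.83 ± 0.396 to 0.937 ± 0.0708 FPKM (SD, n = 3). Those falls were 4.70-fold and 4.09-fold (edgeR adjusted p = 1.014e-10 and 1.035e-09). AGRN, which ties laminin to dystroglycan, rose 3.13-fold from 0.754 ± 0.219 to 2.34 ± 0.330 FPKM (SD, n = 3). NID1, the linker of laminin and collagen networks, was named after its value was seen and fell 1.37-fold from 65.9 ± 4.66 FPKM (SD, n = 3). SPARC, also named after its value was seen, rose 2.11-fold from 74.3 ± 4.30 to 157.9 ± 4.30 FPKM (SD, n = 3; edgeR adjusted p = 1.836e-08).

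Other integrin ligands had 5 of 15 tested genes higher and 4 lower, with a median of 0.19. SPP1, osteopontin, fell from 1.51 ± 0.221 to 0.298 ± 0.140 FPKM, thrombospondin THBS1 rose from 2.40 ± 0.0365 to 8.17 ± 0.757 FPKM, and fibrillin FBN1 rose from 2.00 ± 0.419 to 4.77 ± 0.231 FPKM (SD, n = 3). FN1, fibronectin, was named after its value was seen and fell 1.20-fold from 11.6 ± 0.156 FPKM (SD, n = 3).

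Lists of proteins acting inside the cell had medians near 0. Of 15 tested integrin activators and tail adaptors, 6 rose and 1 fell (median -0.02), among them RASGRP1, an exchange factor for RAP and RAS, 2.20-fold, the kindlin FERMT3 1.75-fold and the filamin FLNA 1.39-fold, all higher. The single fall was another kindlin, FERMT1, which was low, at 39 and 7 reads (5.22-fold, edgeR adjusted p = 0.00557), and was named after its value was seen. FERMT1 reached the count filter in all libraries of sgcon only. The FERMT3 call ended under 5 alternatives, with edgeR adjusted p = 0.0652 without sgcon replicate 1. Talin, TLN1, was at 28.9 ± 3.27 and 28.0 ± 0.380 FPKM (SD, n = 3), not called, and was named after its value was seen. Of 32 focal adhesion genes, 6 rose and 6 fell (median 0.01), with RSU1, an adaptor of the ILK complex, 1.57-fold higher and ARHGEF7 and CRKL 1.45-fold and 1.31-fold lower.

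Of 14 trafficking genes, 2 rose and 3 fell (median 0.03), and RAB11FIP1, RAB4A and GGA3, which act in integrin recycling, were the falls, at 1.71-fold, 1.47-fold and 1.26-fold. The GGA3 call ended in 2 of the 3 limma runs, and the list's 5 calls came to 3 with limma on log2(FPKM + 0.1). Of 10 lateral partners, 2 rose and 3 fell (median 0.04). The tetraspanins CD9 and CD63 rose 1.78-fold and 1.37-fold, and PLAUR, the urokinase receptor, fell 1.55-fold in a call that ended with DESeq2 (adjusted p = 0.0696) and when any library except sgcon replicate 3 was left out (edgeR adjusted p from 0.0545 to 0.103). CD151, the tetraspanin that binds laminin receptors, was at 12.3 ± 1.15 and 11.8 ± 0.794 FPKM (SD, n = 3), not called, and was named after its value was seen. The 5 calls in this list came to 2 or 3 when any 1 library was left out, and to 2 with DESeq2.

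**Figure D4:**
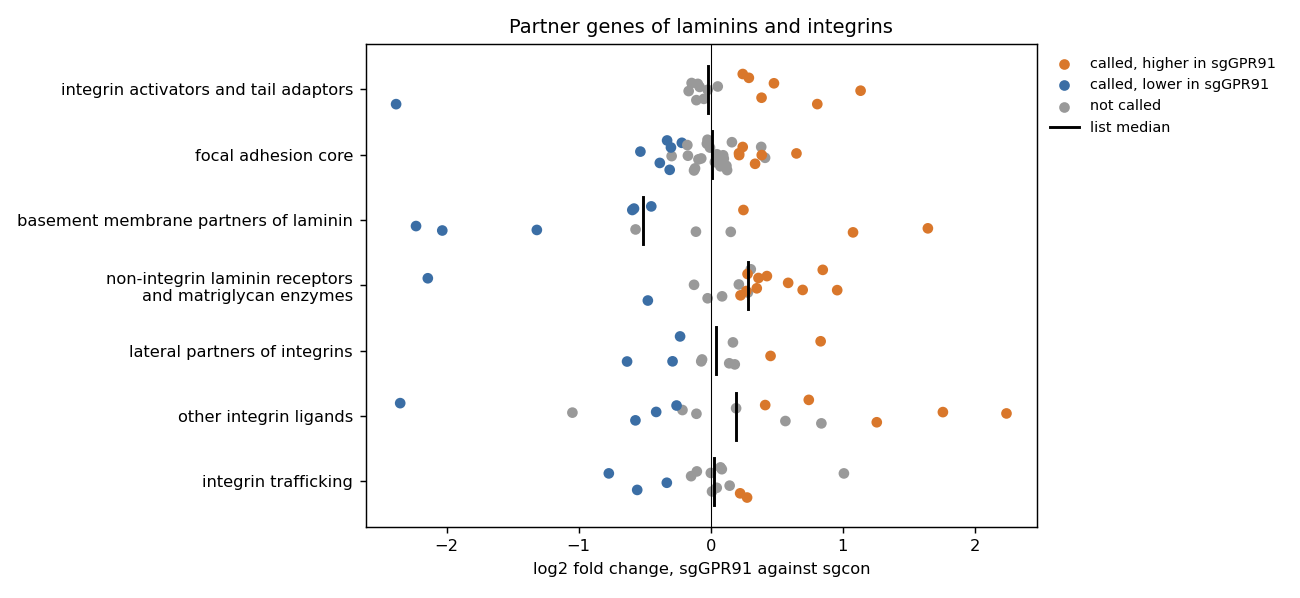
Log2 fold change, sgGPR91 against sgcon, of each tested gene in 7 lists of laminin and integrin partners; orange and blue points are called higher and lower, grey points are not called, and black bars are list medians. Basement membrane partners have a median of -0.51 and laminin receptors with matriglycan enzymes 0.28, while the other 5 medians lie between -0.02 and 0.19.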

How the data were processed

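RNA sequencing was deposited for 6 libraries (3 sgcon, 3 sgGPR91, grouped by title). Per the file headers, the table holds raw counts beside FPKM for each library. The counts as deposited are whole and unscaled, and the deposited FPKM divide them by the listed gene length and by library total. HISAT2, Bowtie2 and RSEM are named in the submitters' processing notes, without roles, and the genome build and strand setting are not given in the sources used here. Counts were tested with edgeR 4.0.16 in R 4.3.3 (filterByExpr with minimum count 10 and minimum total 15, TMM, quasi-likelihood test, Benjamini-Hochberg adjustment over all 12701 genes tested). A log2 fold change has its standard error from the F statistic. The procedure was run on simulated data with the same spread for all genes and few changed genes, unlike these data. That run does not measure how reliable the calls here are. Alternatives were RLE scaling, DESeq2 1.42.0, no filter, limma 3.58.1 on log2(FPKM + 1) and log2(FPKM + 0.1), a replicate block and leaving out each library, and GENCODE version 29 gene lengths were added after seeing the data. Coordinates of genes are those of the deposited table. Values in every library are given for called members with at least 1.5-fold difference and the leading gene of each chain class, and each list names its 3 called genes with the largest change at a mean of at least 1 FPKM. Members, lists and ligand classes were chosen with earlier results of these data known. Intervals cover counting error only, and folds against a floor leave out the error of the reads in the other group. The values of 1 member are not reported here.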

Additional observations from a re-analysis of the deposited data

How the results depend on the processing

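Of the 16 called members, 12 kept their call and direction under all 13 alternatives, and LAMB2, ITGA9, ITGA11 and LAMC3 lost it in at least 1. Members called numbered 14 to 17 when 1 library was left out, 16 with DESeq2, 18 without the count filter (LAMA1 lower and ITGB6 higher were added) and 12 with limma on unfiltered log2(FPKM + 1). Over all genes that limma run called 1668 lower, against 2661, with more genes tested. Genes called ranged from 4108 to 5707 when 1 library was left out. The replicate block called 5670 genes and 17 members, LAMC1 being the addition. Same-numbered libraries had deviations correlated at 0.15, 0.02 and 0.09, and libraries with different numbers at -0.13 to 0.06. These values do not settle whether libraries were paired. The labels do not state pairing, so the numbers were not taken to pair the libraries. The shift of the ITGB1 share, 0.427 percentage points, became -0.26 without sgcon replicate 3. Among members with under 50 reads in a group, such as ITGA6, ITGB3 and LAMA1, depth limits the size of the fold.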
